A study of Rattus norvegicus with 2 samples.

Results

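The antigen presentation genes examined here were 10 genes that serve the display of peptides on the cell surface, followed in rat urine RNA with and without ureteral obstruction. They were picked by symbol among the number-only features of the deposited table, which are rat NCBI gene IDs, and 10 of 10 were found among 16484 such genes and 113011 features in all. The class II genes numbered 6 (Cd74, RT1-Da, RT1-Db1, RT1-Ba, RT1-Bb and Ciita), and the class I machinery genes 4 (B2m, Tap1, Tap2 and Tapbp). The rats were Sprague Dawley, labelled as postnatal day 56 (8 weeks). In the UUO group (unilateral ureteral obstruction, a surgical model of kidney scarring) the right ureter was ligated, and the group labelled WT is the sham arm, with the same surgery and no ligation. Urine was collected from the ureter by catheter 14 days after surgery in both groups. Each group gave 1 library, and how many rats contributed to a library is not stated. No difference below therefore has a replicate check, no test was possible, and each value describes these 2 libraries only. The deposited columns are named UrRf and Urc. UrRf was read as UUO and Urc as WT, from the series title and the headings of the study's urine lists, so that all directions below rest on that reading and turn round with it.

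MHC class II molecules carry peptides from engulfed proteins to CD4 T cells. An alpha and a beta chain pair in the endoplasmic reticulum with the invariant chain, the product of Cd74, which blocks the groove and guides the complex to endosomes, where proteases cut it away. Class II is typical of dendritic cells, macrophages and B cells, and other cells, tubular epithelium among them, can acquire it under interferon gamma through the transactivator Ciita. Class I molecules are made by nearly every nucleated cell. Cytosolic peptides cut by the proteasome are pumped by the transporter Tap1/Tap2 and loaded with the help of tapasin (Tapbp) on a heavy chain paired with B2m. Rat MHC genes carry the prefix RT1, and 7 of the 10 genes lay on chromosome 20.

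Promoter stretches of both groups are shown because they hold short motifs known from class II and from interferon-responsive promoters. RefSeq promoter sequences of the GRCr8 build, from 250 bases before to 50 bases after the annotated gene start, were matched for 9 of the 10 genes (not Ciita). Both strands were searched for CTGATTGG, a Y box of class II promoters that holds the CCAAT box on the opposite strand, for CCTAGCAAC, an X box, and for an interferon-response motif (GAAA, any 2 bases, GAAA). Any Y box match also holds the 5 letters of a CCAAT box, and the motifs were chosen after these promoters had been looked at. The Y box was found in RT1-Da, RT1-Db1, RT1-Ba and RT1-Bb, 4 of 5 class II promoters (not Cd74), in 0 of 4 class I machinery promoters and in 3.50% of all 33469 promoters. The interferon-response motif was found in 4 of 4 class I machinery promoters, in 0 of 5 class II promoters and in 3.92% of all. Since the motifs were chosen on these promoters, the split between the groups is a description. Partner genes did not keep to it, with the Y box in 2 of 13 class II partners (RT1-DOa and Rfx5) and 2 of 8 class I partners (Calr and Psmb9), and the interferon-response motif in 2 of 13 class II partners (Ctss and Rfx5) and 3 of 8 class I partners (Psmb8, Psmb10 and Psme2). These exact X box letters were found only in RT1-Da among the 9, and in 0.807% of all promoters. Near matches were not searched for, so the other promoters cannot be said to lack an X box. A match describes these letters in this window and is not evidence of binding.

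The class II stretches of 70 bases are RT1-Da at chr20:4515313-4515382 (plus strand), RT1-Db1 at chr20:4560226-4560295 (minus), RT1-Ba at chr20:4576961-4577030 (plus) and RT1-Bb at chr20:4604163-4604232 (minus), all GRCr8. Capitals mark the Y box, which begins 52, 83, 46 and 64 bases before the gene start in that order, and in RT1-Da also the X box, 86 bases before the start.
RT1-Da: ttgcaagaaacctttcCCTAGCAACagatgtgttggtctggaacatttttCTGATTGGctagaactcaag
RT1-Db1: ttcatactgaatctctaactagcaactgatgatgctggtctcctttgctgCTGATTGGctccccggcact
RT1-Ba: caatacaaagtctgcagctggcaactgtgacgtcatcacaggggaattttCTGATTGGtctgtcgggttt
RT1-Bb: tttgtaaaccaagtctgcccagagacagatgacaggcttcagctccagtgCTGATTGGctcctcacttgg

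The class I machinery stretches, also GRCr8, are B2m at chr3:129549150-129549219 (plus), Tap1 at chr20:4668625-4668694 (minus), Tap2 at chr20:4652298-4652367 (minus) and Tapbp at chr20:4967864-4967933 (minus). Capitals mark the interferon-response motif, which begins 150, 121, 41 and 26 bases before the start. In Tap1 it is on the opposite strand, and in Tapbp 2 matches overlap, the second beginning 20 bases before the start.
B2m: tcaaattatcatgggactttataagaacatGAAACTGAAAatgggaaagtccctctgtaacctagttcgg
Tap1: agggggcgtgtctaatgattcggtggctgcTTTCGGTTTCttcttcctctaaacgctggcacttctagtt
Tap2: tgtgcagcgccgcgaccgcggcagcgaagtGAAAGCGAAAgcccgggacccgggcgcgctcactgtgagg
Tapbp: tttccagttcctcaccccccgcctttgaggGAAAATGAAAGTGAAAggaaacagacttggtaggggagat

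Transcripts of the central class II genes were present in both libraries, at nearly equal levels as deposited. Cd74 had an FPKM (fragments per kilobase of transcript, scaled by the mapped fragments of the library) of 70.0 in the WT and 64.8 in the UUO library. RT1-Da, an alpha chain, had an FPKM of 16.9 in the WT and 16.9 in the UUO library. Its partner RT1-Db1, a beta chain, was at 9.50 in WT and 13.1 in UUO urine, a 1.38-fold higher FPKM. As deposited, levels of the 3 genes differed by less than the 2-fold limit used for a call, here the difference of log2(FPKM + 1), UUO minus WT, of at least 1 in size. This difference was -0.11 for Cd74, 0.00 for RT1-Da and 0.43 for RT1-Db1. On the log2(FPKM + 1) scale the sign of the Cd74 difference was positive under each of 3 rescalings of the UUO library (equal sums of gene IDs, equal sums, median ratio), at 0.20, 0.51 and 0.77. RT1-Da was then at 0.30, 0.60 and 0.86, and RT1-Db1 at 0.72, 1.02 and 1.28, past the limit under the last 2 of them.

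The other alpha and beta pair, RT1-Ba and RT1-Bb, the rat counterpart of human HLA-DQ as RT1-Da and RT1-Db1 are of HLA-DR, went apart. RT1-Ba, the alpha chain, was listed at 0 in WT and had an FPKM of 5.18 in UUO urine, so no fold is given. RT1-Bb, the beta chain, had an FPKM of 15.7 in the WT and 6.08 in the UUO library, 2.58-fold lower in UUO. Its difference of -1.24 on the log2(FPKM + 1) scale passed the limit as deposited, but was -0.96, -0.68 and -0.44 under the 3 rescalings and -0.91 when FPKM was summed over its locus. The chains of 1 heterodimer thus had opposite directions in the same pair of libraries. Ciita, the transactivator of class II genes, was listed at 0 in WT and had an FPKM of 1.66 in UUO urine.

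Of the class I machinery, B2m, the light chain, had the highest FPKM in UUO urine among the 10 genes. It was at 50.7 in WT and 92.9 in UUO urine, 1.83-fold higher, with a log2(FPKM + 1) difference of 0.86 that was 1.17, 1.48 and 1.75 under the 3 rescalings. Tapbp, the bridge between transporter and heavy chain, was at 29.8 in WT and 30.9 in UUO urine. Tap1, a subunit of the peptide transporter, was at 5.74 in WT and 8.09 in UUO urine, 1.41-fold higher. Tap2, the other subunit of that transporter, was listed at 0 in both libraries. All 3 class I machinery genes that were above 0 had the higher FPKM in UUO urine, and none of them passed the limit as deposited.

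**Figure D1:**
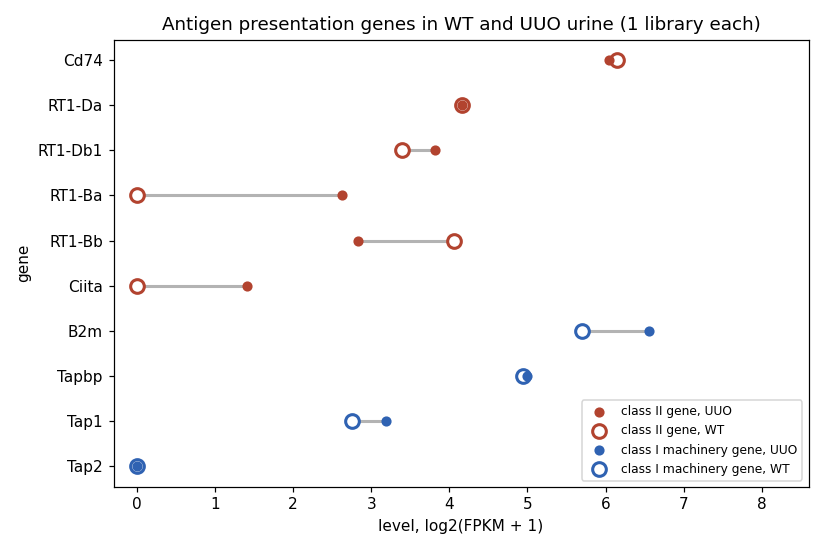
Level of each gene as log2(FPKM + 1) in WT urine (open circles) and UUO urine (filled circles), 1 library each, with class II genes in red and class I machinery genes in blue. Cd74, RT1-Da and Tapbp nearly coincide, RT1-Ba and Ciita have WT circles at 0, RT1-Bb lies lower in UUO, and both Tap2 circles are at 0.

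Of the 10 genes, 9 reached an FPKM of 1 in at least 1 library and were counted, all but Tap2. Called higher in UUO urine were 2 of 9 (RT1-Ba and Ciita, both listed at 0 in WT), 22.2%, against 25.7% of 9853 genes counted in the same way. Called lower was 1 of 9 (RT1-Bb), 11.1%, against 36.5% of all counted genes. The remaining 6 passed neither limit. The share called higher was near that of all genes, and 1 gene called lower out of 9 is too few to set against the other share.

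The median difference was 0.22 over the 6 class II genes and 0.43 over the 3 counted class I machinery genes, against -0.51 over all 9853 counted genes, all as log2(FPKM + 1), UUO minus WT. Class II minus class I was -0.22, small beside the range of the class II genes, from -1.24 to 2.63. The class I range was 0.05 to 0.86. With the genes listed at 0 in 1 library left out, a step added after the data had been seen, the median was -0.05 over 4 class II genes, 0.43 over 3 class I machinery genes and -0.84 over 7784 genes. Among those 7784 genes, the share with a lower difference was 90.2% for B2m, 84.2% for Tap1, 84.2% for RT1-Db1, 76.5% for Tapbp, 75.3% for RT1-Da, 72.5% for Cd74 and 35.4% for RT1-Bb. Hence 6 of the 7 genes above 0 in both libraries lay above the median of such genes, with RT1-Bb below it.

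**Figure D2:**
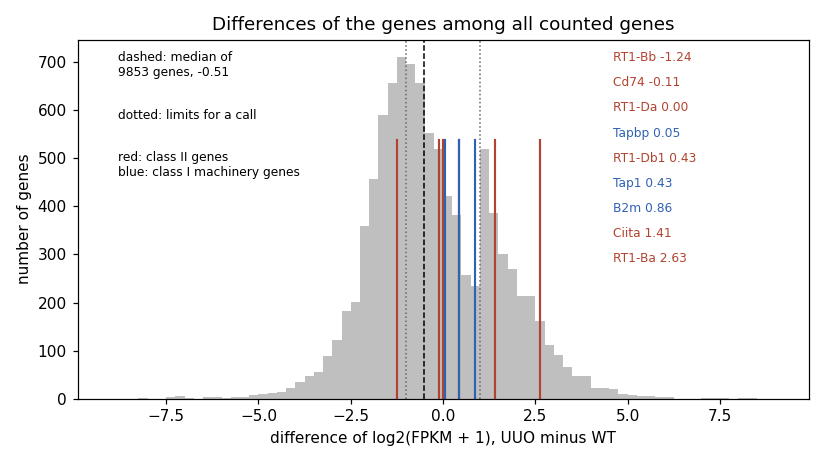
Number of genes (y axis) by difference of log2(FPKM + 1), UUO minus WT (x axis), for the 9853 counted genes, with class II genes as red lines and class I machinery genes as blue lines. The dashed line is the median of all genes, -0.51, and the dotted lines are the limits of -1 and 1. Only RT1-Bb lies to the left of the dashed line.

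Ratios of 2 genes within a library do not move when that library is rescaled by 1 factor. Summed FPKM of the 6 class II genes was 112 for WT and 108 for UUO urine, while that of the 4 class I machinery genes was 86.2 and 132. The ratio of class II to class I machinery was accordingly 1.30 in WT and 0.817 in UUO urine, 1.59 times lower in UUO. B2m alone held 50.7 of the class I machinery sum in WT and 92.9 of it in UUO urine. The shift of this ratio therefore largely follows B2m and does not describe the class I machinery genes as a set. Cd74 over B2m, the gene of highest summed level in each group, was 1.38 in WT and 0.697 in UUO urine. Within class II, invariant chain over alpha chain (Cd74 over RT1-Da) was 4.15 in WT and 3.84 in UUO urine. The 4 chain genes summed came to 0.601 of the FPKM of Cd74 in WT and 0.637 in UUO urine. The ratio of the beta chains RT1-Bb and RT1-Db1 was 1.65 in WT and 0.463 in UUO urine. No test of these ratios was possible.

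By rank of FPKM among the 16484 genes, with 1 as the highest, B2m stood at 1410 in WT and 261 in UUO urine, and Cd74 at 970 in WT and 426 in UUO urine. Tapbp stood at 2385 in WT and 1140 in UUO urine, and RT1-Da at 3761 in WT and 2255 in UUO urine. RT1-Bb moved the other way, from 3940 in WT to 5261 in UUO urine. In WT urine the order of levels was Cd74, B2m, Tapbp, RT1-Da, RT1-Bb, RT1-Db1 and Tap1, and in UUO urine it was B2m, Cd74, Tapbp, RT1-Da, RT1-Db1, Tap1, RT1-Bb, RT1-Ba and Ciita. With 1 library a group, whether neighbours in these orders differ beyond their spread cannot be said.

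How to read a listed 0 in WT urine depends on the level in UUO urine. Of 1158 genes with a UUO FPKM from 1 to under 2, where Ciita lies, 59.4% were listed at 0 in WT. The share was 31.4% from 2 to under 5, and 15.0% from 5 to under 10, where RT1-Ba lies. It was 6.49% from 10 to under 20, 3.80% from 20 to under 50 and 2.20% at 50 or more. In the other direction, with genes banded by their WT FPKM, 5.69% from 1 to under 2 and 3.25% from 5 to under 10 were listed at 0 in UUO. So the 0 of Ciita in WT was the more common outcome in its band, and the 0 of RT1-Ba the less common one.

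**Figure D3:**
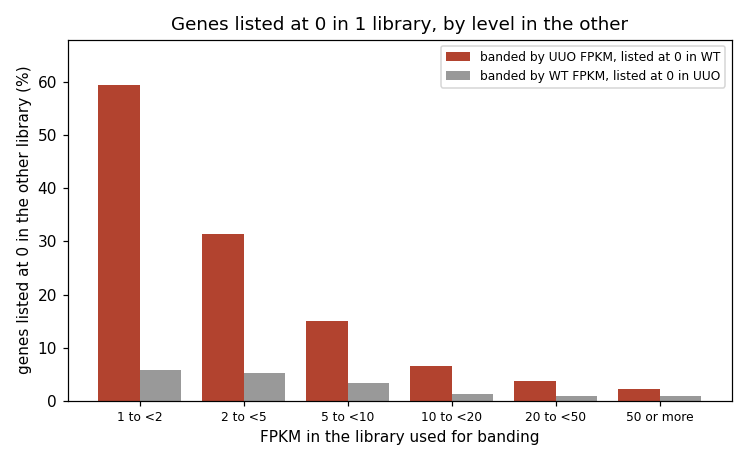
Percentage of genes listed at 0 in 1 library (y axis) by FPKM in the other (x axis). Red bars band genes by UUO FPKM and count those at 0 in WT, and grey bars band by WT FPKM and count those at 0 in UUO. Red bars fall from 59.4% to 2.20%, and each grey bar is lower than the red bar of its band.

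Fragment numbers could be recovered only for assembled features alone at their locus, with spans of 400 to 1200 bp. There FPKM came within 0.1 of whole fragments for 93.5% of 186 values in WT and 99.5% of 3530 values in UUO urine, at normalising totals of 2116000 and 2446000 fragments. These totals were fitted within a set range, and a whole multiple of the true total would also give whole fragments. At those totals 3 fragments on a 1000 bp transcript correspond to an FPKM of 1.63 in the WT and 1.49 in the UUO library, counting error only. Ciita had an FPKM of 1.66 in UUO urine. Its transcript length was not available, so its number of fragments was not computed and cannot be read from that level. Of the 16484 genes 26.0% were at 0 in both libraries, Tap2 among them, and whether such a 0 is an absent transcript or a failed estimate was not tested.

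Positions, in the rn5 build named in the submitters' processing notes, place most of the genes in the MHC on chromosome 20. Listed there are Tap1 (6058582 to 6069227), Tap2 (6075091 to 6089133), RT1-Bb (6118040 to 6128913), RT1-Ba (6145867 to 6150865), RT1-Db1 (6167758 to 6177328), RT1-Da (6207781 to 6212754) and Tapbp (7525562 to 7534805). Cd74 is listed on chromosome 18 (55305821 to 55315250), Ciita on chromosome 10 (4036436 to 4083966) and B2m on chromosome 3 (120627477 to 120633535). Each listed region is a whole gene with its exons and introns.

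The loci of 9 of the 10 genes also hold noncoding entries or another gene, 46 features in all, and reads of a locus are divided among them. At RT1-Db1 the other 8 features held a summed FPKM of 7.65 in the UUO and 0 in the WT library. Summed over that locus, FPKM was 9.50 in the WT and 20.8 in the UUO library, a log2(FPKM + 1) difference of 1.05, past the limit that RT1-Db1 alone did not reach. Cd74 was little affected, at 70.0 in WT and 66.9 in UUO urine over its locus, and Tap2 stood alone.

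Most class II partner genes called higher were listed at 0 in WT. All 15 were in the table and 13 were counted, 7 of them called higher (53.8%, against 25.7% of all counted genes), 2 lower (15.4%, against 36.5%) and 4 neither, with a median difference of 1.38. Ctsl, an endosomal protease that cuts the invariant chain in some cells, had an FPKM of 7.97 in the WT and 48.7 in the UUO library, a log2(FPKM + 1) difference of 2.47. The other 6 called higher were listed at 0 in WT and at low FPKM in UUO urine, as in RT1-DOb (3.07), Nfyb (2.77), Ctss (2.72), Marchf1 (2.40), RT1-DOa (1.85) and Nfya (1.60). RT1-DOa and RT1-DOb form a modulator of peptide exchange, Ctss is the invariant chain protease of professional presenting cells, Marchf1 is a ubiquitin ligase that takes class II off the cell surface, and Nfya and Nfyb are subunits of the factor that binds CCAAT boxes. These 6 values lie in the bands where 59.4% and 31.4% of genes were at 0 in WT.

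The 2 partners called lower were subunits of RFX, the factor that binds the X box. Rfx5 had an FPKM of 14.2 in the WT and 2.69 in the UUO library, a log2(FPKM + 1) difference of -2.04, and Rfxap 20.1 in WT and 6.21 in UUO urine, a difference of -1.55. Rfxank, the remaining subunit, was at 7.27 in WT and 7.18 in UUO urine. Lgmn, an endosomal protease, was at 25.2 in WT and 12.6 in UUO urine, and Ifi30, a reductase of endosomal peptides, at 18.7 in WT and 9.39 in UUO urine, with differences of -0.95 and -0.92 that passed no limit. Nfyc was at 8.46 in WT and 5.18 in UUO urine. RT1-DMa and RT1-DMb, the pair that exchanges the invariant chain remnant for peptide, were listed at 0 in both libraries.

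Of 11 class I partner genes, 10 were in the table (not Nlrc5) and 9 were counted, 2 of them called higher (22.2%, near the 25.7% of all counted genes), 2 lower (22.2%, against 36.5%) and 5 neither, with a median difference of 0.05. Of the immunoproteasome subunits, which replace the constitutive catalytic subunits, Psmb8 was at 5.92 in WT and 12.5 in UUO urine, a difference of 0.96, Psmb9 at 9.03 in WT and 9.36 in UUO urine, and Psmb10 at 30.4 in WT and 19.8 in UUO urine. Psmb9 lies beside Tap1, with 183 bases between their listed rn5 regions, and Tap1 over Psmb9 was 0.636 in WT and 0.864 in UUO urine. Psme1, a subunit of the proteasome activator, was at 106 in WT and 34.2 in UUO urine, a difference of -1.60, while Psme2, its partner, was listed at 0 in both.

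Among chaperones of peptide loading, Pdia3 was at 88.2 in WT and 37.7 in UUO urine, called lower with a difference of -1.20. Calr was at 64.9 in WT and 71.0 in UUO urine, and Canx at 46.4 in WT and 34.2 in UUO urine. The peptide trimming enzyme Erap1 (3.65 in UUO) and the tapasin homologue Tapbpl (4.53 in UUO) were listed at 0 in WT.

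Class I heavy chains were summarised as a family, because some are close copies among which reads may not be split reliably. The family takes in every RT1 symbol outside class II, so its members need not all be alike. Of 37 such genes in the table, 13 were counted, 9 called higher (69.2%, against 25.7% of all counted genes) and 0 lower (against 36.5%). Among those called higher, RT1-N3, RT1-S3 and RT1-T24-3 share a listed locus, and RT1-CE2, RT1-CE4 and RT1-CE13 share another. These calls are therefore not separate observations, and the shares are not like those of all genes. Of the 9, 8 were listed at 0 in WT, and 6 of the 8 had a UUO FPKM under 5, in the bands where 59.4% and 31.4% of all genes were at 0 in WT. Summed over the family, FPKM was 43.9 in the WT and 116 in the UUO library, and B2m over that sum was 1.16 in WT and 0.800 in UUO urine. The 4 genes with the highest FPKM over both libraries were RT1-CE5 (19.3 in WT and 29.1 in UUO), RT1-CE4 (5.73 in WT and 23.0 in UUO), RT1-CE11 (9.52 in WT and 13.8 in UUO) and RT1-A2 (0 in WT and 15.8 in UUO).

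Genes of the interferon response, which can induce both presentation pathways, were called at about the shares of all genes. Of 20 genes, 16 were counted, 4 called higher (25.0%, against 25.7% of all counted genes), 6 lower (37.5%, against 36.5%) and 6 neither, with a median difference of -0.35. Ifng itself was listed at 0 in both libraries. Irf7 was at 18.8 in WT and 70.9 in UUO urine, Ifit2 at 1.15 in WT and 3.43 in UUO urine, and Ifit3 (24.2 in UUO) and Irf8 (6.70 in UUO) were listed at 0 in WT. Lower in UUO were Mx2 (28.3 in WT and 1.54 in UUO), Oas1a (18.6 and 2.26), Cxcl11 (11.7 and 2.11), Isg15 (44.2 and 13.9), Jak1 (51.8 and 19.0) and the receptor chain Ifngr1 (20.5 and 8.94). The transcription factor Irf1 was at 11.1 in WT and 14.7 in UUO urine. Ifngr2 was at 21.4 in WT and 11.5 in UUO urine, Jak2 at 2.41 in WT and 5.27 in UUO urine, Socs1 at 19.4 in WT and 20.3 in UUO urine, and Gbp2 at 5.21 in WT and 2.97 in UUO urine.

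Of 7 costimulation genes, 6 were in the table (not Icosl) and 3 were counted. Cd86, a ligand for CD28 on T cells, was at 4.64 in WT and 4.33 in UUO urine. The inhibitory ligand Cd274 (10.3 in UUO) and the adhesion molecule Icam1 (3.02 in UUO) were listed at 0 in WT. Cd40 and Cd80 were at 0 in both.

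Leukocyte markers differed between the libraries, and those of dendritic cells went in both directions. The Cd74 difference was small as deposited, at -0.11, and larger under the rescalings. Pan-leukocyte markers do not single out cells with class II. All 5 pan-leukocyte markers (Ptprc, Laptm5, Tyrobp, Fcer1g and Coro1a) were listed at 0 in WT, where Cd74 had an FPKM of 70.0, and summed to 49.7 in UUO urine, where Cd74 had 64.8. Tyrobp was at 20.7 and Coro1a at 14.4 in UUO urine, bands in which 3.80% and 6.49% of genes were at 0 in WT. Laptm5 was at 7.41 in UUO urine, in the band where 15.0% were at 0 in WT. Ptprc at 3.33 and Fcer1g at 3.85 lay in the band where 31.4% were. In bulk RNA fewer cells of a type and less RNA per cell cannot be told apart. The 9 macrophage and monocyte markers summed to 9.61 in WT and 39.2 in UUO urine. Of these, 4 were counted, 3 called higher (75.0%, against 25.7% of all counted genes) and 0 lower. Lyz2 was at 7.55 in WT and 26.5 in UUO, and Cd68 (7.87 in UUO) and Itgam (1.63 in UUO) were at 0 in WT. Itgam lay in the band where 59.4% of genes were at 0 in WT. Cd14, at 2.05 in WT and 1.31 in UUO, passed no limit. Csf1r, Fcgr1a and Adgre1 were at 0 in WT and under 1 in UUO, and Mrc1 and Cd163 at 0 in both.

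Among B cell markers only Cd79b reached an FPKM of 1, and only in UUO urine. The 4 in the table (not Cd79a) were all listed at 0 in WT, Ms4a1 also in UUO, and Cd79b was at 3.19 in UUO urine. Of 6 dendritic cell markers in the table (not Itgax), Flt3 was at 5.25 in WT and 0.159 in UUO urine, Xcr1 at 2.53 in WT and under 1 in UUO, Batf3 at 3.61 in UUO and 0 in WT, and the others were under 1 in both. Of 6 T cell markers Cd4 was counted (9.26 in WT and 3.04 in UUO), and Cd2, Cd3d and Cd3e were at 0 in both. The 5 neutrophil markers were all at 0 in WT and summed to 102 in UUO urine, with S100a9 at 71.7, S100a8 at 27.0 and Csf3r at 3.06. The part of these cells in the class II values was not tested.

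**Figure D4:**
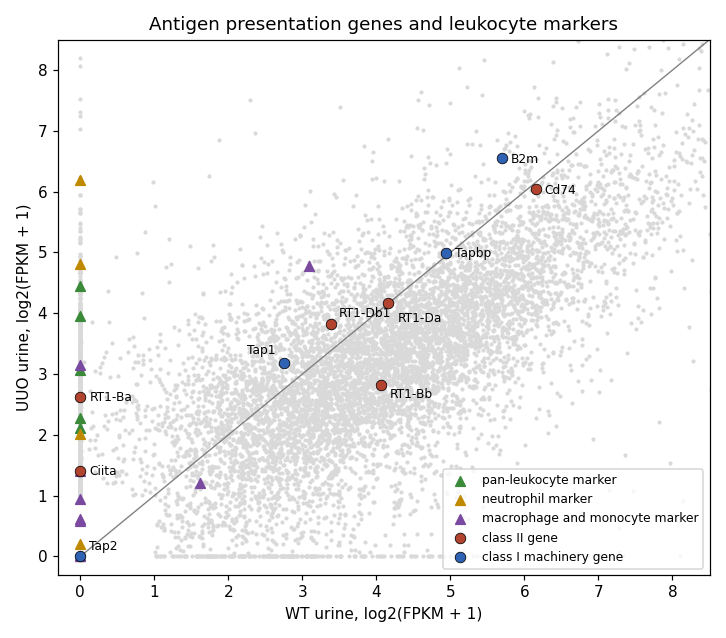
WT (x axis) against UUO (y axis) level as log2(FPKM + 1), with counted genes in grey, class II genes in red, class I machinery genes in blue and leukocyte markers as triangles (axes end at 8.5, so higher genes are not drawn). Cd74, RT1-Da and Tapbp lie on the line of equal levels, while all pan-leukocyte and neutrophil markers lie at 0 in WT.

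Urine should carry RNA of urothelium and nephron, and their markers were present. Over both libraries the uroplakins Upk1a, Upk1b, Upk2 and Upk3a had an FPKM from 82.4 to 466, while the basal cell keratin Krt5 was at 51.8 in UUO and 0 in WT urine. The 6 distal nephron markers summed to 204 in WT and 241 in UUO urine. Of these, 1 was called higher (Calb1), 16.7%, against 25.7% of all counted genes, and 5 neither. The 5 proximal tubule markers summed to 106 in WT and 38.3 in UUO urine, with 4 of 5 called lower (Lrp2, Cubn, Slc34a1 and Slc5a2), against 36.5% of all counted genes. Of 4 endothelium markers, all listed at 0 in WT, Pecam1 was at 1.07 in UUO urine. The part of these cell types in the levels of the antigen presentation genes was not tested.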

How the data were processed

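Rat urine RNA was sequenced in 2 libraries, 1 labelled WT and 1 UUO. Per the submitters' processing notes and the study's methods, ribosomal RNA was removed, stranded read pairs were aligned to rn5 with TopHat2 2.0.9 and Bowtie2 2.0.6, transcripts were assembled with Cufflinks 2.1.1 and compared with Cuffdiff 2.1.1. The authors deposited 1 FPKM value per feature and library. Which total scaled it is not stated. MHC genes vary between rat strains, and the effect of this on alignment was not tested. The authors' own fold changes, test statistics, p-values and q-values were not used.

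Symbols came from a RefSeq table of GRCr8, which matched 16329 of 16484 gene IDs. Changes were computed with Python 3.11.15 as the difference of log2(FPKM + 1), UUO minus WT, which understates low genes. Genes with an FPKM of at least 1 in either library were counted, and called at a difference of 1 or more (2-fold). Besides the 10 genes, 4 pathway lists, 10 marker lists and the heavy chain family were summarised, all members with an FPKM of at least 1 being named for the pathway lists, and the 4 highest heavy chains. The values of 1 interferon response gene and 1 B cell marker are not reported here. Genes and lists were chosen with earlier results of these data known. Pseudocount, filter, scaling, locus sums and size limit were varied. Calls and fragment steps were tested on simulated data.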

Additional observations from a re-analysis of the deposited data

Results flagged for a closer look

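Entries outside the comparison were picked out where a feature at the locus of an antigen presentation gene had an FPKM of at least 1 in UUO urine and a log2(FPKM + 1) difference of at least 1 over the WT library. They numbered 7 of 46 such features, all listed at 0 in WT. All 7 were among 45 noncoding database entries, 15.6% of them, against 6.48% of 46792 such entries at the loci of other counted genes, where 90.4% of those picked out were listed at 0 in WT. NONRATT032719 at RT1-Db1 had an FPKM of 7.16 in UUO urine, against 13.1 for RT1-Db1 itself. NONRATT035598 at B2m had 3.29. At Tapbp, NONRATG018029 had 2.69 and NONRATT033729 had 2.65, nearly the same value. Entries that share a locus are therefore not separate observations, and the shares above count each of them. NONRATT033620 at RT1-Ba had 1.50, NONRATT032711 at RT1-Bb had 1.09 and NONRATT026044 at Cd74 had 1.03. Of the 46 features, 33 were above 0 in UUO and 4 in WT urine. Of the 45 noncoding entries 71.1% were above 0 in UUO and 8.89% in WT urine, against 68.6% and 24.7% at the other loci. How reads were divided between these entries and the genes was not tested.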

How the results depend on the processing

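No paired analysis was possible because there is a single library for each condition. A difference is taken as unchanged when it kept its sign and its side of 1, and a count when it stayed within 1.5 times. Class II minus class I stayed below 0 in the 10 alternatives run, between -0.48 (genes above 0 in both libraries, added after seeing the data) and -0.03 (no filter). The rescalings among them multiply the UUO library by 1 factor, which cancels out of this difference apart from the pseudocount. They could therefore hardly change its sign. The median over all counted genes was -0.51 as deposited and moved to 0.15 with equal sums, to 0.46 with the median ratio and to -0.17 with equal sums over gene IDs. By the median ratio the class II median was 1.07 and the class I machinery median 1.25. With genes above 0 in both libraries the class II median was -0.054.

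The genes called higher numbered 0 with a pseudocount of 10, 1 with an FPKM of at least 5, 4 with equal sums, 5 with the median ratio, 1 at a size limit of 2, 0 among genes above 0 in both libraries and 1 without Ciita (the last 2 added after seeing the data). The share of all counted genes called higher moved too, and was 3.76%, 14.0%, 35.0%, 39.8% and 10.7% under the first 5 of these. It was 8.11% and 25.7% under the last 2. Those last 2 counts were fixed in advance, because the settings leave out Ciita, or both RT1-Ba and Ciita, the genes called higher as deposited. So was the count with an FPKM of at least 5, a filter that leaves out Ciita (1.66 in UUO and 0 in WT). The genes called lower numbered 0 with a pseudocount of 10, under each of the 3 rescalings, when FPKM was summed over the locus and at a size limit of 2. Of all counted genes, from 12.03% (size limit of 2) to 28.1% (equal sums of gene IDs) were called lower in these settings. Of 86 listed differences of single genes, 69 were unchanged, 17 moved and 0 reversed from a called value. Many of the unchanged ones were fixed in advance. An FPKM of at least 5, no filter, genes above 0 in both libraries and leaving out Ciita change only which genes are kept. A reversal was possible only for RT1-Bb, because RT1-Ba and Ciita, the other called genes, were at 0 in WT. The cause of the moves was not tested. At the fitted total, an FPKM of 1.63 in WT would stand for 3 fragments on a 1000 bp transcript. Fragment numbers of single genes were not computed, so the part of depth in the low values was not tested.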
